A study of Homo sapiens with 41 samples.

Results

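The 8 genes described here belong to the plasminogen system and the serpin family and were followed through the 6 tables of normalised read counts: PLAU, PLAUR and PLAT, and the serpins SERPINE2, SERPINA3, SERPINF1, SERPINB2 and SERPINH1. They were chosen by symbol, and all 8 were found among the 21375 gene symbols listed in every table, of 23588 listed in any. Plasmin is a serine protease that dissolves fibrin and degrades extracellular matrix, and it is cut from the inactive precursor plasminogen by urokinase (PLAU), which is held at the cell surface by its receptor (PLAUR), or by tissue plasminogen activator (PLAT). Serpins are a protein superfamily whose inhibitory members trap serine proteases in an irreversible complex. In melanoma and lung carcinoma the activators, their receptor and several serpins are known as secreted or surface proteins of invading cells.

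RNA sequencing of 41 samples in 15 groups was used. Vemurafenib, which blocks mutant BRAF, was applied to the melanoma lines A375, Colo800 and UACC62. Crizotinib, which blocks ALK, was applied to H3122, from a lung adenocarcinoma. A375 cultures received vehicle, 6 h of 0.1 µM vemurafenib or 48 h of 0.1 µM vemurafenib (n = 3 each), Colo800 and UACC62 cultures 48 h of 1 µM vemurafenib or vehicle (n = 2 each), and H3122 cultures 48 h of 300 nM crizotinib or vehicle (n = 2 each). Treated and vehicle cultures alike were in medium with 2% serum. The same vehicle group of A375 cultures served 6 h and 48 h. No time is given for it or for the vehicle cultures of Colo800, UACC62 and H3122. Drug and time in that medium therefore cannot be told apart in the cultures. Subcutaneous tumours of A375 cells in mice received 10 doses of vemurafenib at 75 mg/kg or vehicle (n = 4 each). Tumours of A375R, the drug-resistant line of the series, were grown from A375R mixed with A375 cells or from A375R alone, each with the same 10 doses of vemurafenib or with vehicle (n = 3 for each of these 4 groups). Culture libraries hold whole RNA. For tumours the labels' protocol describes ribosome-associated RNA pulled down with GFP beads. The titles of A375R tumours, mixed and alone, join RPL10a, a ribosomal protein, to the name A375R, which places the tag on A375R cells. Those of A375 tumours do not name it, but the name under which their values were submitted joins RPL10a to A375. The labels do not give the strain of mouse.

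Depth ran from 8063754 to 42843612 reads per library. Of 16 genes that report MAPK pathway activity, 15 were lower at 6 h and at 48 h in A375 cultures and in A375 tumours, and 16 of 16 were lower in Colo800, UACC62 and H3122. DUSP6, a phosphatase that switches off ERK, had a log2 change of −2.75 ± 0.27 (SE) in A375 cultures at 6 h and −2.20 ± 0.08 in A375 tumours, and SPRY4, another feedback inhibitor, −8.16 ± 0.11 in UACC62. In A375R tumours 3 of these 16 genes were lower with the drug in mixed tumours, SPRY4 at −0.81 ± 0.13 among them, and 2 in tumours of A375R alone. Of 8 melanocyte markers, 3 had a mean of at least 10 normalised reads in vehicle-treated A375 tumours and in A375R-alone tumours. In vehicle-treated mixed tumours 4 of 8 did. TYR and DCT were at 0 in every library of these groups. Of 8 lung epithelial markers, 7 had a mean of at least 10 in H3122. Summed melanocyte markers were 171776–192439 normalised reads in treated Colo800, against 60612–64009 in vehicle, 49061–54578 in treated UACC62, against 23636–24029 in vehicle, and 9261–10657 in treated A375 tumours, against 1201–1777 in vehicle. In A375 cultures they were 9473–11903 in vehicle, 6504–8086 at 6 h and 14176–16860 at 48 h. In H3122 the summed lung epithelial markers were 83996–88991 with crizotinib, against 131831–154823 in vehicle. The part of these differences in the changes of the 8 genes was not tested.

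The results turn on genes that shared a direction in several lines (PLAUR), changed by the widest margin (SERPINB2) or differed between tumour settings (SERPINA3). The 250 bases before the RefSeq transcription start of these genes (GRCh38.p14) are shown 5′ to 3′ on the gene's strand, with matches to searched motifs in capitals.
PLAUR, chr19:43670170-43670419, minus strand: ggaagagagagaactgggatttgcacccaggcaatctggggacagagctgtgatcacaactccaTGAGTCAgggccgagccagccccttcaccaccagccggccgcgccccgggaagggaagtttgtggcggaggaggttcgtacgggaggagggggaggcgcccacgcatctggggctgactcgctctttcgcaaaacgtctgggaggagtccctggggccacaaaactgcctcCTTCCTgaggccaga
SERPINB2, chr18:63887455-63887704, plus strand: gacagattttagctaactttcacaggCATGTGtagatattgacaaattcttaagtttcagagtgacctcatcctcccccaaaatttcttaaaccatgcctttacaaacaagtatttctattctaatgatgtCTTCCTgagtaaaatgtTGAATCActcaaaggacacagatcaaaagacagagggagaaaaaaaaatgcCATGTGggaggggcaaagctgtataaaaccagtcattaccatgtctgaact
SERPINA3, chr14:94612141-94612390, plus strand: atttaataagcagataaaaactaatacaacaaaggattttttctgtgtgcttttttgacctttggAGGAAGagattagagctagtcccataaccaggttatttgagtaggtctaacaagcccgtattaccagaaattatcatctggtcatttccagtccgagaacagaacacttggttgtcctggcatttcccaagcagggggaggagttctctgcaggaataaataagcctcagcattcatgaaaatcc
Both strands were searched for TGANTCA (the AP-1 site bound by FOS and JUN proteins), AGGAAG (bound by ETS factors), CATGTG (an E-box bound by MITF) and TTCNNNGAA (the STAT site). PLAUR held TGAGTCA, starting 186 bases before its start, and SERPINB2 held TGAATCA, starting 102 bases before its start. Of 35116 RefSeq promoters of the same length, 6.57% hold the AP-1 motif, 28.7% the ETS motif, 9.42% the E-box and 6.57% the STAT motif. The ETS motif was in all 3 windows shown, and SERPINB2 held 2 E-boxes. SERPINE2 shared a direction in more lines than PLAUR and is not shown, so the ETS count depends on the choice of windows. Windows not shown were searched too: SERPINE2, which has 2 starts in the table, held 5 E-boxes before 1 of them and no ETS or AP-1 match, PLAU held 1 ETS match before 1 of its 2 starts, and SERPINH1 held no match. Of all promoters, 0.0285% hold 4 or more E-boxes. No STAT match was in these 250 bases of SERPINA3. These matches are descriptions of letters and not of bound sites. Windows of 6 of the 8 genes were searched, and those of PLAT and SERPINF1 were left out.

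PLAUR, the urokinase receptor, fell under inhibitor in A375, Colo800 and H3122 cells and in A375 tumours. In A375 cultures it measured 862, 845 and 1024 normalised reads in vehicle, 152, 269 and 335 at 6 h, and 180, 176 and 170 at 48 h. Every treated library was below every vehicle library, at −1.92 ± 0.24 on the log2 scale at 6 h (SE; adjusted p = 0.00115) and −2.36 ± 0.24 at 48 h (adjusted p = 2.82e-05). Between 48 h and 6 h the change was −0.45 ± 0.24 (adjusted p = 0.166), and without the lowest 6 h library (replicate 1) it was −0.77 (adjusted p = 0.0039). At 6 h, 3 of the 6 members that passed the filter on low values were lower and 0 higher, where 3.33% of all genes tested were called lower and 1.07% higher. At 48 h 2 were lower and 1 higher, where 25.6% of all genes were lower and 24.3% higher, so the count at 48 h is near the background. In these bulk samples fewer cells of a type and less RNA per cell cannot be told apart.

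In Colo800, PLAUR had 78.0 and 83.4 normalised reads with vemurafenib, against 535 and 613 in vehicle, and in A375 tumours 121, 128, 131 and 105 with vemurafenib, against 1118, 1154, 946 and 1269 in vehicle. Both pairs of groups were far apart relative to their spread. The log2 change was −2.81 ± 0.11 in Colo800 (adjusted p = 3.12e-14) and −3.20 ± 0.10 in the tumours (adjusted p = 1.69e-13), a vehicle mean 9.25 times the treated mean. H3122 cells, which have another driver, had 139 and 112 with crizotinib, against 400 and 432 in vehicle (−1.73 ± 0.13, adjusted p = 1.27e-06). In UACC62 no difference was detected: 368 and 286 with vemurafenib, against 323 and 337 in vehicle. There the groups overlapped and the change was −0.03 ± 0.14 (adjusted p = 0.893), with 2 SE either side reaching from −0.31 to 0.26. UACC62 and the other lines sit in separately normalised tables, so the difference between lines was not tested.

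**Figure D1:**
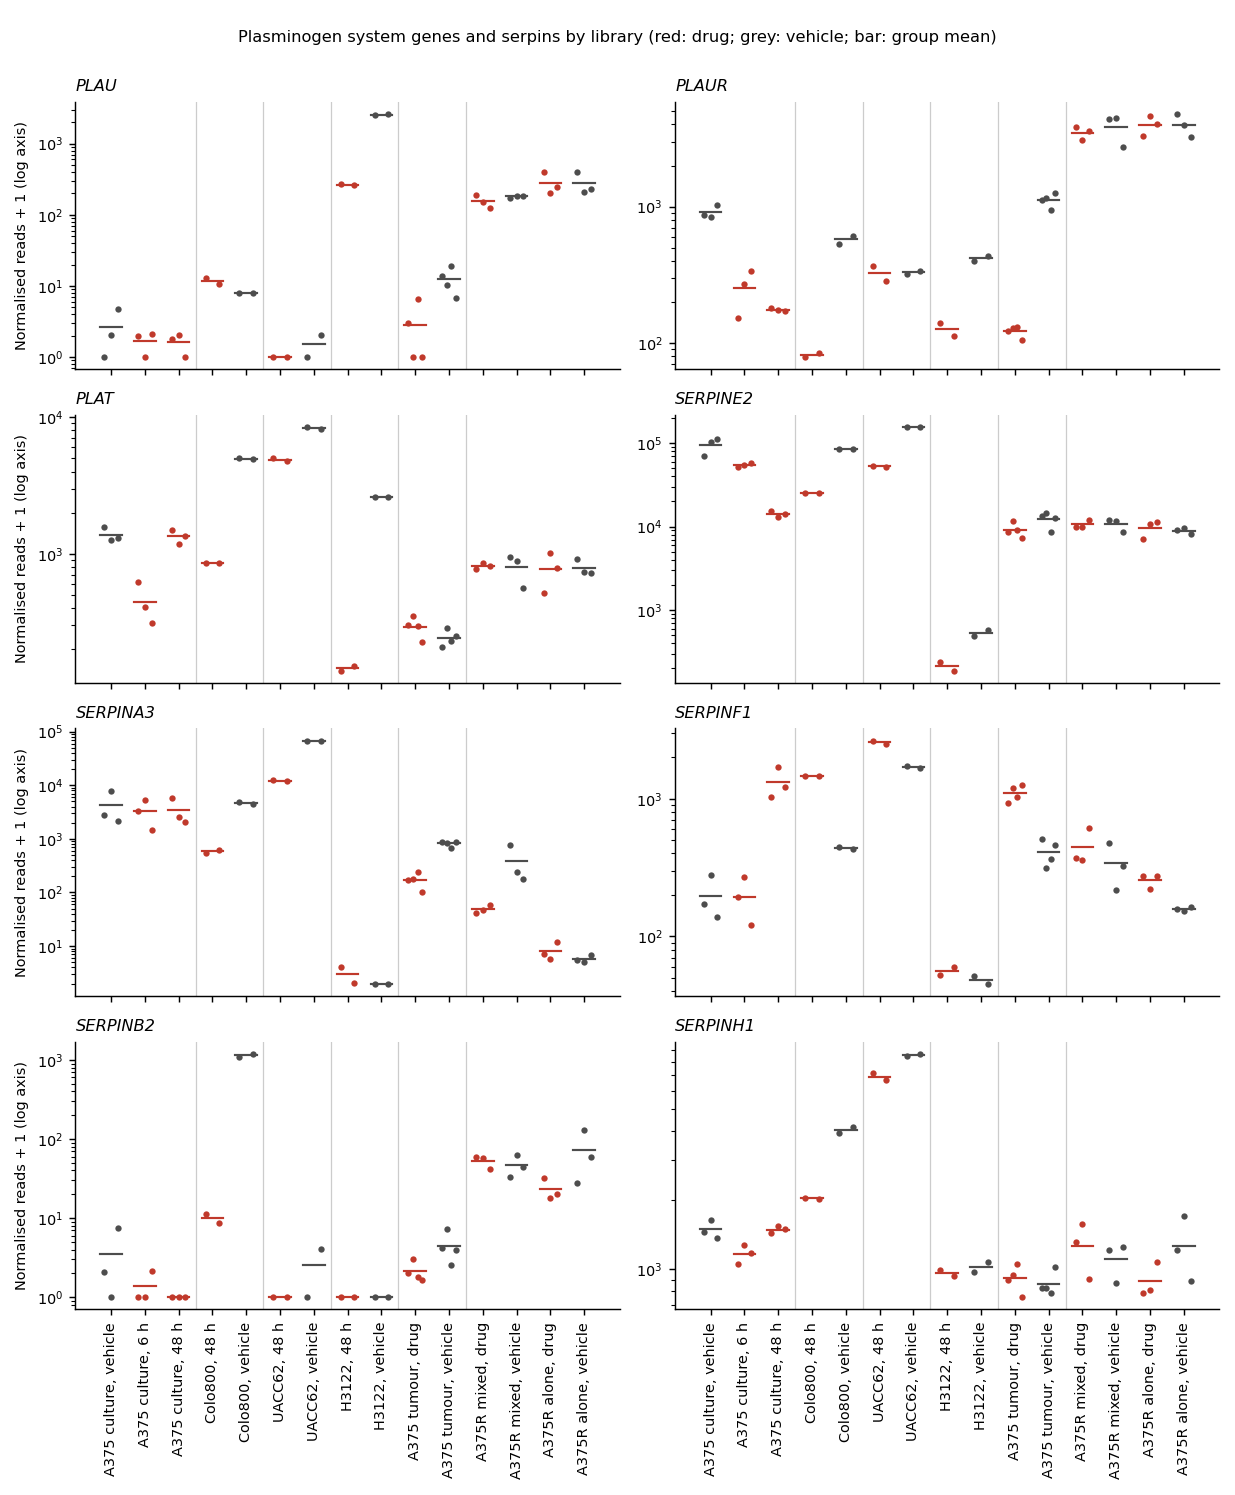
Normalised reads plus 1 per library (log axis) for each of the 8 genes in the 15 groups; red points are drug-treated and grey points vehicle-treated libraries, and bars are group means. Grey lines separate the 6 tables, which were normalised separately. PLAUR in A375 tumours lies between 105 and 131 with vemurafenib and between 946 and 1269 in vehicle.

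PLAU, the urokinase protease itself, was measurable in H3122 cells and in A375R tumours and was near 0 elsewhere. In H3122 it had 268 and 260 normalised reads with crizotinib, against 2496 and 2610 in vehicle. It fell by 3.27 on the log2 scale (SE 0.09, adjusted p = 6.14e-10), with a vehicle mean 9.68 times the treated mean. Of 6 members tested in H3122, 4 were lower, the protease and its receptor among them, and 0 higher, where 24.0% of all genes were lower and 22.1% higher. In A375 and UACC62 cultures PLAU had at most 3.76 normalised reads in any library, and in Colo800 between 7.04 and 12.2. In A375 tumours it had 2.02, 0, 5.49 and 0 with vemurafenib, against 12.8, 9.4, 18.3 and 5.82 in vehicle. These tumour groups did not overlap, but the table mean was under 10, so PLAU was left out of the test. With no filter on low values it was lower (−2.48 ± 0.55, adjusted p = 0.00124), on 0 to 7 reads per treated library and 4 to 36 per vehicle library. An annotated RefSeq lncRNA, C10orf55, overlaps PLAU, and the library kit does not mark strand, so reads of the pair cannot be told apart; PLAUR, SERPINE2 and SERPINB2 also overlap annotated noncoding genes.

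PLAT, tissue plasminogen activator, fell in all 3 drug-treated lines other than A375. In A375 cultures it was lower than vehicle at 6 h, with no difference detected at 48 h. A375 cultures had 1570, 1267 and 1302 normalised reads in vehicle, 623, 406 and 311 at 6 h, and 1494, 1178 and 1357 at 48 h. The 6 h libraries lay below every other library, and the 48 h libraries overlapped with vehicle. The change was −1.68 ± 0.22 at 6 h (adjusted p = 0.00149), −0.04 ± 0.22 at 48 h (adjusted p = 0.895) and 1.64 ± 0.22 for 48 h over 6 h (adjusted p = 0.000252). From 6 h to 48 h, 3 of 6 members were higher and 1 lower, where 19.6% of all genes were higher and 19.7% lower. PLAUR, unlike PLAT, was still below vehicle at 48 h.

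H3122 had 139 and 151 normalised reads of PLAT with crizotinib, against 2611 and 2614 in vehicle, a vehicle mean 18 times the treated mean and a log2 change of −4.16 ± 0.09 (adjusted p = 2.33e-10). Colo800 had 863 and 851 with vemurafenib, against 4989 and 4956 in vehicle (−2.54 ± 0.04, adjusted p = 3.37e-19). UACC62 had 5008 and 4755 with vemurafenib, against 8426 and 8180 in vehicle, a smaller change of −0.77 ± 0.09 (adjusted p = 9.58e-05). In A375 tumours the direction was not the same: 299, 349, 295 and 225 with vemurafenib, against 208, 283, 229 and 247 in vehicle. Those groups overlapped (0.26 ± 0.13, adjusted p = 0.0821). Without vehicle replicate 2 the adjusted p was 0.0364, and without vemurafenib replicate 4 it was 0.00929. In UACC62 4 of 6 members were lower and 1 higher, where 29.6% of all genes were lower and 26.9% higher. In A375 tumours 3 of 6 were lower and 1 higher, where 34.0% of all genes were lower and 34.2% higher.

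**Figure D2:**
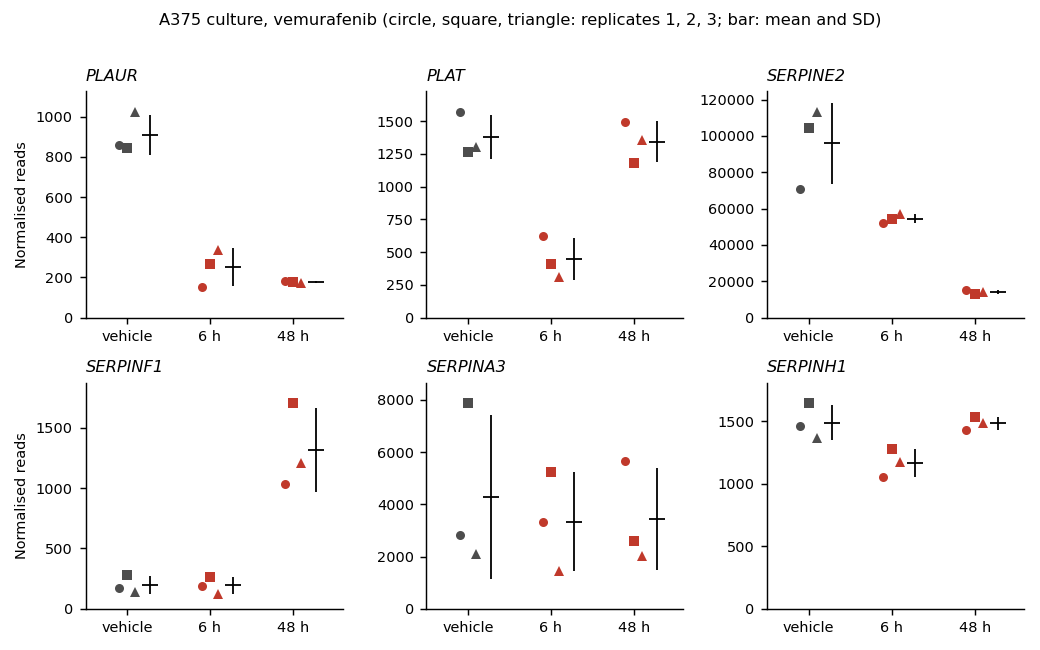
Normalised reads of 6 members in A375 cultures in vehicle and after 6 h and 48 h of vemurafenib; symbols are replicates 1, 2 and 3 (circle, square, triangle) and black bars are the mean and SD. PLAT was lowest at 6 h, SERPINE2 was lower at each later time, and SERPINF1 was high at 48 h.

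SERPINE2, protease nexin 1, which inhibits thrombin, urokinase and plasmin, fell in every sensitive group tested. A375 cultures had 70685, 104128 and 113210 normalised reads in vehicle, 52050, 54294 and 57167 at 6 h, and 15173, 13135 and 14003 at 48 h. The 3 sets of libraries did not overlap. At 48 h the change from vehicle was −2.74 ± 0.18 (adjusted p = 2.45e-06) and from 6 h −1.95 ± 0.18 (adjusted p = 2.94e-05). The 6 h change of −0.79 ± 0.18 (adjusted p = 0.0314) was a weak call. It was lost with no filter on low values (adjusted p = 0.0646), in a fit of the 2 groups alone (0.0833), with quantile normalisation (−0.16, adjusted p = 0.627), and when any of 7 libraries was left out: vehicle replicates 2 or 3, any of the 6 h replicates, or 48 h replicates 2 or 3 (adjusted p from 0.0515 to 0.126).

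UACC62 had 53823 and 51533 normalised reads of SERPINE2 with vemurafenib, against 154286 and 154664 in vehicle (−1.55 ± 0.08, adjusted p = 1.18e-06). Colo800 had 25088 and 25277 with vemurafenib, against 83904 and 85176 in vehicle (−1.75 ± 0.04, adjusted p = 6.43e-17). H3122 cells had 235 and 188 with crizotinib, against 482 and 576 in vehicle (−1.32 ± 0.13, adjusted p = 1.14e-05). In A375 tumours the values were 8580, 11578, 9132 and 7223 with vemurafenib, against 13397, 14387, 8680 and 12622 in vehicle. These overlapped, and the change of −0.42 ± 0.15 (adjusted p = 0.0169) lost its call without vehicle replicate 1 (adjusted p = 0.0535), vehicle replicate 2 (0.0663) or vemurafenib replicate 4 (0.0547). The drop at 48 h in A375 culture and that in A375 tumours come from separately normalised tables, and their difference was not tested.

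SERPINB2, also called PAI-2, an inhibitor of urokinase and tissue plasminogen activator, was abundant in Colo800 cultures alone among the sensitive groups. Colo800 had 10.1 and 7.67 normalised reads with vemurafenib, which are 10 and 8 reads, against 1085 and 1191 in vehicle. The vehicle mean was 128 times the treated mean and the log2 change −6.86 ± 0.15 (adjusted p = 1.93e-17), the largest change of any of the 8 genes in any comparison. In Colo800 6 of 7 members tested were lower and 1 higher, where 37.3% of all genes were lower and 36.0% higher. No library of A375, UACC62 or H3122 cultures or of A375 tumours had more than 6.59 normalised reads of SERPINB2, and none was detected in H3122. In A375 tumours, where it was under the filter, the groups overlapped on 1 to 4 reads per library, and with no filter on low values it was lower (−1.02 ± 0.37, adjusted p = 0.0311).

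SERPINA3, alpha-1-antichymotrypsin, a secreted acute-phase inhibitor of cathepsin G and chymase, fell in Colo800, UACC62 and A375 tumours, with no difference detected in A375 cultures. Colo800 had 555 and 610 normalised reads with vemurafenib, against 4825 and 4488 in vehicle (−3.00 ± 0.05, adjusted p = 6.39e-19). UACC62 had 12319 and 11780 with vemurafenib, against 67840 and 67987 in vehicle (−2.50 ± 0.08, adjusted p = 1.03e-07). A375 tumours had 167, 176, 243 and 101 with vemurafenib, against 888, 839, 683 and 865 in vehicle (−2.31 ± 0.18, adjusted p = 9.71e-09). In each of these pairs the treated libraries lay below every vehicle library. A375 cultures had 2842, 7869 and 2113 in vehicle, 3315, 5245 and 1441 at 6 h, and 5673, 2595 and 2036 at 48 h. The replicates of 1 group differed more than the groups did, with a change of −0.31 ± 0.56 at 6 h (adjusted p = 0.848) and −0.22 ± 0.56 at 48 h (adjusted p = 0.766). The intervals of 2 SE reach from −1.43 to 0.82 at 6 h and from −1.34 to 0.91 at 48 h. In H3122 SERPINA3 had at most 3.02 normalised reads and was under the filter on low values.

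SERPINF1, pigment epithelium-derived factor, a secreted serpin without protease inhibitor activity that is known to block angiogenesis, was the member that rose. A375 cultures had 170, 277 and 136 normalised reads in vehicle, 192, 267 and 120 at 6 h, and 1030, 1703 and 1208 at 48 h. Vehicle and 6 h overlapped (−0.02 ± 0.32, adjusted p = 0.985), and every 48 h library was above them, at 2.78 ± 0.32 over vehicle (adjusted p = 6.28e-05) and 2.80 ± 0.32 over 6 h (adjusted p = 0.000105). Colo800 had 1454 in both libraries with vemurafenib, against 447 and 428 in vehicle (1.73 ± 0.06, adjusted p = 3.22e-15). UACC62 had 2651 and 2498 with vemurafenib, against 1730 and 1669 in vehicle (0.60 ± 0.09, adjusted p = 0.000608). Tumours of A375 had 928, 1194, 1038 and 1260 with vemurafenib, against 508, 312, 366 and 461 in vehicle, and did not overlap (1.44 ± 0.13, adjusted p = 6.45e-08). The H3122 values were 51.4 and 58.5 with crizotinib, against 50.2 and 44.0 in vehicle, a change of 0.22 ± 0.21 that did not pass the test (adjusted p = 0.41).

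SERPINH1, also called HSP47, is a serpin of the endoplasmic reticulum without inhibitor activity and a chaperone of procollagen. Colo800 had 2041 and 2027 normalised reads with vemurafenib, against 3924 and 4149 in vehicle (−0.99 ± 0.04, adjusted p = 2.56e-13). UACC62 had 7189 and 6656 with vemurafenib, against 8548 and 8692 in vehicle (−0.32 ± 0.09, adjusted p = 0.013). The UACC62 call was lost with quantile normalisation (−0.14, adjusted p = 0.178) and without vehicle replicate 1 (0.226) or vehicle replicate 2 (0.267). A375 cultures had 1458, 1644 and 1367 in vehicle, 1051, 1274 and 1177 at 6 h, and 1432, 1536 and 1489 at 48 h. The 6 h libraries lay below those of vehicle and of 48 h. Against vehicle this did not pass the main, unpaired test (−0.35 ± 0.11, adjusted p = 0.125). It did with the replicate number as a block (adjusted p = 0.039), which gives 1462 genes in place of 608. Same-numbered libraries of 6 h and vehicle deviated together. The 48 h level over 6 h was 0.35 ± 0.11 (adjusted p = 0.0308), a call lost without 6 h replicate 1 (adjusted p = 0.101) or 3 (0.065) or 48 h replicate 2 (0.0945) or 3 (0.0831). In H3122 and A375 tumours SERPINH1 changes were −0.09 ± 0.09 (adjusted p = 0.418) and 0.07 ± 0.10 (adjusted p = 0.539).

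**Figure D3:**
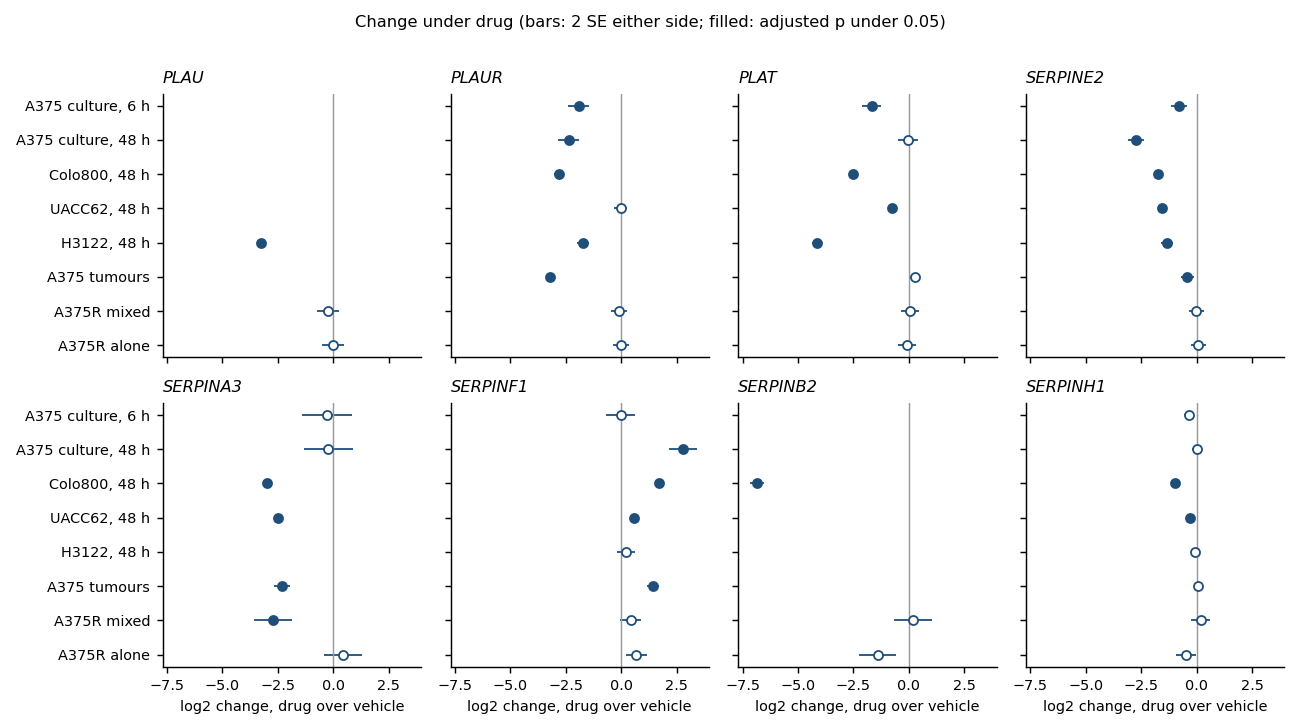
Log2 change, drug over vehicle, for each gene and drug comparison, with bars of 2 SE either side; filled circles passed an adjusted p of 0.05 in limma, open circles did not, and a missing circle had a table mean under 10. PLAUR and SERPINE2 lie left of 0 in most sensitive groups, SERPINF1 lies right of 0 from 48 h on, and in A375R tumours the filled circle is that of SERPINA3 in mixed tumours.

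In tumours of A375R alone the drug called 0 of the 8 members, where limma called 0.305% of all genes higher and 0.487% lower. SERPINF1 (0.69 ± 0.24, adjusted p = 0.137), SERPINB2 (−1.42 ± 0.43, adjusted p = 0.0995) and SERPINH1 (−0.47 ± 0.22, adjusted p = 0.266) had an unadjusted p under 0.05. The share of all genes at that unadjusted limit was not counted, so these are not read as a result. The count of members called was 0 with edgeR on the recovered reads, 1 with DESeq2 (SERPINB2) and 1 in a limma fit of the 2 groups alone (SERPINF1, adjusted p = 0.0237). PLAUR had 3296, 4595 and 4038 normalised reads with vemurafenib, against 4773, 3952 and 3264 in vehicle. Its change of −0.00 ± 0.18 has 2 SE either side from −0.36 to 0.35, which does not include the −3.20 seen in A375 tumours, though the tables were normalised separately and the difference was not tested. PLAU was present, with 404, 201 and 242 with vemurafenib, against 397, 210 and 232 in vehicle. Both groups of PLAU overlapped. SERPINB2 had 30.9, 16.8 and 19.1 with vemurafenib, against 26.9, 131 and 58.4 in vehicle, with 1 treated library above the lowest vehicle library.

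SERPINA3 was the member that differed most between A375R tumours mixed with A375 cells and those of A375R alone. It had 751, 238 and 179 normalised reads in mixed tumours and 4.48, 4.11 and 5.96 in A375R-alone tumours, all under vehicle. With vemurafenib it had 40.6, 46.0 and 58.6 in mixed tumours and 6.18, 4.67 and 10.8 in A375R-alone tumours. Under either treatment every mixed tumour lay above every A375R-alone tumour, and 1 vehicle-treated mixed tumour was far above its replicates. The change, mixed over alone, was 5.78 ± 0.43 under vehicle (adjusted p = 1.54e-06) and 2.64 ± 0.43 under vemurafenib (adjusted p = 0.0202). Vemurafenib lowered it in mixed tumours, at −2.70 ± 0.43 (adjusted p = 0.00306), where it was the 1 member of 8 called, and 2.23% of all genes were lower and 1.24% higher. In the same mixed tumours PLAUR had 3811, 3068 and 3597 with vemurafenib, against 4370, 4440 and 2740 in vehicle, groups that overlapped (−0.11 ± 0.18). The drug response in mixed tumours minus that in A375R-alone tumours was −3.14 ± 0.61 (adjusted p = 0.0203). It was the 1 member of 8 called in that test, where 0.974% of all genes were lower and 1.91% higher. In A375R-alone tumours SERPINA3 had 4 to 9 reads per library, near the floor, and it passed the filter through the mixed tumours. A fall with the drug in A375R alone could hardly have been seen. The difference in response therefore follows largely from the fall in mixed tumours.

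The call under vemurafenib was lost with edgeR (adjusted p = 0.0719) and without A375R-alone replicate 1 (0.104) or 2 (0.105) or mixed replicate 3 (0.0895) of the vemurafenib groups. The difference in drug response was lost with edgeR (0.0602) and without A375R-alone vehicle replicate 1 (0.0601) or 3 (0.0603). In CPM (recovered reads scaled to the library total), SERPINA3 of vehicle-treated mixed tumours was 21.5% of that of vehicle-treated A375 tumours, a level set across 2 tables that were normalised separately. The share rests largely on mixed replicate 1, without which it was 10.3%. For 62 other genes with at least 200 normalised reads in every vehicle-treated A375 tumour and at most 20 in every A375R-alone tumour, limits chosen after seeing the data, the share had a median of 0.949% and a highest value of 17.4%. Without mixed replicate 1 the highest was 11.4%, and 1 of the 62 was above SERPINA3. Of these 62, 40 had a higher mean in mixed than in A375R-alone tumours under vehicle. Choosing genes at 20 or fewer in A375R-alone tumours tilts that count. Several of the 62, MIF and HYI among them, had a mean of 0 in every group of A375R tumours. MIF averaged 8198 normalised reads in vehicle-treated A375 tumours. Genes listed numbered 23368 for A375 tumours and 21595 for A375R tumours. How far gene lists or read counting lowered the median share was not tested. Melanocyte marker sums were 1030–1502 in mixed and 434–771 in A375R-alone vehicle tumours. With vemurafenib they were 612–758 and 407–747. Leukocyte marker sums were 3412–5054 in mixed and 7579–9759 in A375R-alone vehicle tumours. With vemurafenib they overlapped and lay the other way, at 5115–8301 and 3845–5999. Of 8 leukocyte markers, 4 had a mean of at least 10 normalised reads in vehicle-treated mixed tumours. PTPRC and MS4A1 were at 0 in every one of these tumours. Vehicle-treated A375 cultures also had leukocyte marker sums of 463–1068, so these sums do not measure leukocytes alone. The part of RNA from A375 cells or of other cells in these differences was not tested.

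SERPINF1 was also higher in mixed tumours under vehicle, with 479, 215 and 323 normalised reads in mixed and 158, 151 and 163 in A375R-alone tumours. The groups did not overlap, at 1.03 ± 0.24 (adjusted p = 0.0261). Under vehicle 2 of 8 members were higher and 0 lower in mixed tumours, where 1.93% of all genes were higher and 1.37% lower. Under vemurafenib 1 was higher and 0 lower, where 0.211% of all genes were higher and 0.0291% lower. The SERPINF1 call rests on few libraries. It was lost without mixed vehicle replicate 1 (0.74, adjusted p = 0.162) or 3 (0.05) and without any of the A375R-alone vehicle replicates (adjusted p from 0.0647 to 0.0943). Under vemurafenib SERPINF1 had 370, 359 and 608 in mixed and 274, 219 and 273 in A375R-alone tumours, which also did not overlap but did not pass the test (0.77 ± 0.24, adjusted p = 0.229). PLAU lay lower in mixed tumours in both settings without passing it: 170, 185 and 185 in mixed and 397, 210 and 232 in A375R-alone tumours under vehicle (−0.58 ± 0.25, adjusted p = 0.223), and 189, 150 and 125 in mixed and 404, 201 and 242 in A375R-alone tumours under vemurafenib (−0.82 ± 0.25, adjusted p = 0.221). For SERPINB2 the drug response in mixed tumours minus that in A375R-alone tumours was 1.62 ± 0.60 (adjusted p = 0.156).

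**Figure D4:**
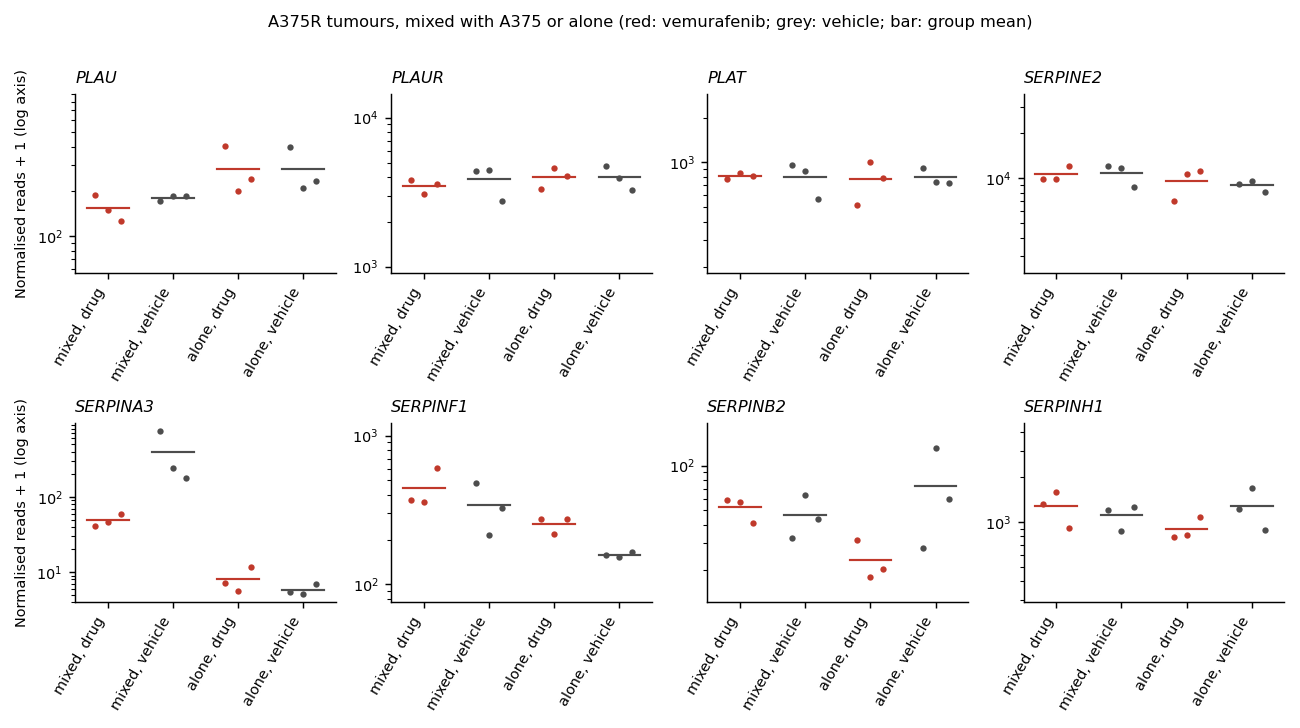
Normalised reads plus 1 (log axis) of the 8 genes in the 4 groups of A375R tumours, mixed with A375 cells or alone; red points are vemurafenib-treated and grey points vehicle-treated tumours, and bars are group means. SERPINA3 is at 179 to 751 in vehicle-treated mixed tumours and at 4.11 to 5.96 in vehicle-treated A375R-alone tumours.

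Plasminogen itself (PLG) was barely transcribed, with at most 6 reads in any library. The circulating protein is made in the liver. Among 25 other genes of the plasminogen system 1 of 17 tested was lower in A375 cultures at 6 h (ITGB3, the beta 3 subunit of the vitronectin receptor) and 0 higher, where 3.33% of all genes were lower and 1.07% higher. At 48 h 9 of 17 were higher and 4 lower, where 24.3% of all genes were higher and 25.6% lower, with a median change of 0.66, against −0.00 for all genes. In Colo800 5 of 19 were higher and 11 lower, where 36.0% of all genes were higher and 37.3% lower. Counts in the other groups were 6 higher and 7 lower of 18 in UACC62 (26.9% and 29.6% of all genes), 4 higher and 8 lower of 20 in H3122 (22.1% and 24.0%), and 9 higher and 7 lower of 18 in A375 tumours (34.2% and 34.0%). Several of these counts are near the background. LRP1, the endocytic receptor that clears protease and inhibitor complexes, was higher with the drug in A375 cultures at 48 h (1.24 ± 0.21), Colo800 (0.67 ± 0.05), UACC62 (0.91 ± 0.16), H3122 (0.74 ± 0.12) and A375 tumours (1.43 ± 0.08). In A375R tumours 0 of 18 were called in A375R alone with the drug, and 3 were lower in mixed tumours (ITGB3, SORL1 and A2M), where 2.23% of all genes were lower.

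Of 29 other serpins, 7 to 12 passed the filter in each table. With the drug, 1 was lower and 0 higher of 10 in A375 cultures at 6 h, where 3.33% of all genes were lower and 1.07% higher. At 48 h 2 were higher and 4 lower of 10 (24.3% and 25.6% of all genes). The counts were 1 higher and 4 lower of 10 in Colo800 (36.0% and 37.3%), 3 higher and 1 lower of 7 in UACC62 (26.9% and 29.6%), 1 higher and 6 lower of 11 in H3122 (22.1% and 24.0%), and 3 higher and 7 lower of 12 in A375 tumours (34.2% and 34.0%). SERPIND1, heparin cofactor II, a thrombin inhibitor, had log2 changes of −2.07 ± 0.35 at 6 h (adjusted p = 0.00791) and −5.53 ± 0.35 at 48 h (adjusted p = 2.14e-06) in A375 cultures, and of −4.88 ± 0.40 in A375 tumours (adjusted p = 1.39e-08). SERPIND1 was also lower in Colo800 (−5.83 ± 0.43, adjusted p = 5.83e-10) and in H3122. SERPINB8 fell in A375 cultures at 48 h (−0.90 ± 0.15), Colo800 (−1.72 ± 0.09), H3122 (−1.78 ± 0.15) and A375 tumours (−1.59 ± 0.14). It was higher in UACC62 (adjusted p = 0.00312). Of 15 enzymes and chaperones that fold and modify collagen beside SERPINH1, 14 of 14 tested were lower in Colo800 and 13 of 15 in UACC62, where SERPINH1 was lower too and 37.3% and 29.6% of all genes were lower. P4HA1, a subunit of prolyl 4-hydroxylase, averaged 1235 ± 17.0 normalised reads with vemurafenib and 4348 ± 44.9 in vehicle in Colo800 (n = 2 each). In A375 cultures at 48 h 5 of 14 were higher and 1 lower (24.3% and 25.6% of all genes), in H3122 3 were higher and 8 lower of 15 (22.1% and 24.0%), and in A375 tumours 5 were higher and 3 lower of 15 (34.2% and 34.0%).

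Across the 41 libraries, after centring each table, the profile of PLAUR was most like those of ITGA3 (Pearson r = 0.93), AEN (0.92) and IER3 (0.92) among 9477 genes with a mean of at least 50 in every table. SERPINE2 was most like IGFBP3 and HMGA1 (0.94 each), PLAT most like ITGB5 (0.88), SERPINF1 most like FLJ90757 (0.90) and LHPP (0.89), and SERPINH1 most like RND3 (0.71). Between members, r was 0.65 for PLAUR with SERPINE2, 0.42 for PLAUR with PLAT, and −0.72 for SERPINE2 with SERPINF1. These are descriptions over libraries that share tables and treatments.

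Levels were ordered across groups in CPM, over tables that were normalised separately. The order also sets whole RNA of cultures beside ribosome-associated RNA of tumours, which are unlike measures. SERPINE2 was highest in vehicle-treated UACC62 (11985) and A375 cultures (8201) and lowest in H3122 (16.0 with crizotinib and 36.7 in vehicle). PLAT, SERPINA3 and SERPINH1 were also highest in vehicle-treated UACC62, at 644, 5269 and 669 CPM. PLAUR was highest in A375R tumours, whose 4 groups ran from 99.1 to 126 and overlapped their neighbours in the order, and lowest in vemurafenib-treated Colo800 (6.1). PLAU was highest in vehicle-treated H3122 (177), and SERPINB2 in vehicle-treated Colo800 (77.7), with the next group at 2.0. SERPINF1 was highest in vemurafenib-treated UACC62 (217). Its next 3 groups overlapped in turn: vehicle-treated UACC62 at 132, A375 cultures at 48 h at 123 and vemurafenib-treated Colo800 at 110.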

How the data were processed

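Per the labels' protocols, sequencing libraries came from the Illumina TruSeq RNA kit, version 2, which does not mark strand. The deposited tables hold 1 signal per gene and library, read counts that the authors divided by a size factor, within each of 6 tables. Named in the submitters' processing notes are DESeq 1.18.0, HTSeq 0.5.4 and STAR 2.3.0e, with the builds hg19 and mm9. The treatment of mouse reads is not stated there. Within a library all values fitted 1 step size, so whole reads were recovered (100% whole within 0.1); deeper libraries have less counting error.

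Mixed and alone were read from the tumour titles with the growth protocol. Whether replicates were separate cultures or animals is not stated, so the p-values rest on the spread of these samples, which may be technical. Genes with a table mean of at least 10 were tested with limma 3.58.1 in R 4.3.3, with a trend, on log2(value + 1), which understates changes of low genes, with all groups of a table in 1 fit. Calls are two-sided Benjamini-Hochberg adjusted p under 0.05 over all genes tested. The fits were tested on simulated data. The members, lists and comparisons were chosen with earlier results of these data known. Named list genes are at most 3 per direction with the smallest adjusted p, with some given again in other groups after their values were seen; 1 listed gene is not reported here.

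Same-numbered libraries of A375 cultures deviated together across 6 h and vehicle (correlations of 0.567, 0.31 and 0.566) and across 48 h and 6 h (0.436, 0.197 and 0.41). The main fits did not use this pairing. The SEs and p-values given for A375 cultures are therefore unpaired, except where the replicate block is named. Across 48 h and vehicle the values were 0.402, 0.028 and 0.32, so replicate 2 was near 0 and that comparison fell short of pairing. Alternatives were pseudocounts of 0.5 and 5, no filter, a filter at 50, quantile normalisation, the replicate block, fits of 2 groups alone, leaving out each library, and edgeR 4.0.16 and DESeq2 1.42.0 on recovered reads of A375 cultures and A375R tumours.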

Additional observations from a re-analysis of the deposited data

Results flagged for a closer look

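In vehicle-treated A375 tumours the highest library of SERPINH1, at 1019 normalised reads, stood apart from the other 3 libraries, at 786 to 825. Such a gap is expected by chance in about 1 in 20 groups.

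The change of 5 results differed between time points or tumour settings by a test of the difference itself. In A375 cultures 48 h differed from 6 h for PLAT (1.64, adjusted p = 0.000252), SERPINE2 (−1.95, adjusted p = 2.94e-05), SERPINF1 (2.80, adjusted p = 0.000105) and SERPINH1 (0.35, adjusted p = 0.0308). Each of these comparisons had every 48 h library on the same side of every 6 h library. In A375R tumours the vemurafenib response of SERPINA3 in mixed tumours minus that in A375R-alone tumours was −3.14 (adjusted p = 0.0203). The A375R-alone side of that difference rests on 4 to 9 reads per library. The p-values are from limma.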

How the results depend on the processing

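Of 1430 values of members under the alternatives, 1392 kept their side of the threshold, 32 lost the call, 6 gained it and 0 called values reversed. Among values not called, the sign could change. The change of SERPINA3 in A375 cultures at 6 h ran from −0.73 to 0.26 under the alternatives. In A375R-alone tumours with the drug 1 member was called in the fit of the 2 groups alone and 1 with DESeq2, in place of 0. With edgeR 0 members were called for mixed over alone under vemurafenib and 0 for the difference in drug response, in place of 1 each. Leaving out 1 library gave 0 to 1 for mixed over alone under vemurafenib, 1 to 2 under vehicle and 0 to 1 for the difference in drug response. Counts over all genes moved by over 1.5 times as follows. A375 cultures at 6 h had 608, with 1462 under the replicate block, 1045 with DESeq2 and 309 at the lowest without 1 library. A375R-alone tumours had 109, with 14 without a filter, 298 with the block, 533 in the fit of the 2 groups alone, 748 with DESeq2 and 1 to 326 without 1 library. Mixed tumours with the drug had 478, with 248 in the fit of the 2 groups alone, 958 with DESeq2 and 96 at the lowest without 1 library. Mixed over alone under vemurafenib had 33, with 11 without a filter, 10 with quantile normalisation, 65 with the block, 8 in the 2 groups alone, 13 with edgeR, 152 with DESeq2 and 1 to 50 without 1 library. Mixed over alone under vehicle had 454, with 297 at a filter of 50, 870 with DESeq2 and 109 at the lowest without 1 library. The difference in drug response had 397, with 185 without a filter, 887 with DESeq2 and 10 at the lowest without 1 library. The cause of these shifts was not tested.

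Replicate numbers did not pair libraries outside A375 cultures, and the block changed no member's call there. In H3122 same-numbered libraries correlated at −0.209; with the numbers crossed, an alternative chosen after seeing the data, 4 members and 8522 genes were called, in place of 4 and 6436. The count tests were not run on the tables of Colo800, UACC62, H3122 and A375 tumours. A left-out library that leaves 1 in a group assumes that it varies like the others. Depth limits PLAU and SERPINB2 in the sensitive groups listed near 0, and SERPINA3 in A375R-alone tumours and in H3122.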
